A study of Homo sapiens with 4 samples.

Results

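Cytoplasmic intermediate filament genes were followed in HAP1 cells with and without MATR3. HAP1 is a human cell line with close to 1 copy of each chromosome, and it descends from KBM-7, a line of chronic myeloid leukaemia. The set was named by symbol and holds 10 of the 60662 genes in the count table: the neurofilament genes NEFL, NEFM and NEFH, the related neuronal filament gene INA, the progenitor filament genes NES and VIM, and the keratin genes KRT8, KRT18, KRT19 and KRT10. It was picked with the comparison of MATR3 knockout (KO) and wild-type (WT) cells already known, in which NEFL and KRT8 stood out. Differences between KO and WT cells in these 10 genes are therefore given as descriptions, with no p-value. There were 4 libraries of PCR-amplified cDNA, made from 50 ng of total RNA each and read as long reads on a MinION of Oxford Nanopore. Of these, 2 came from purchased MATR3 KO clones, clone 1 and clone 5, with 1 library each, and 2 from the WT control, clone 4, called WT A and WT B here. No other allele or agent is named in the labels, and the sources used here do not give the edit of either KO clone. Each KO library is 1 clone and the WT libraries are of 1 clone, so a difference between single clones and an effect of MATR3 loss cannot be told apart.

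Intermediate filaments are rope-like polymers that give cells mechanical strength. Their subunits share a central alpha-helical rod and pair through it before they assemble. Keratins pair only as a type II chain, such as KRT8, with a type I chain, such as KRT18, KRT19 or KRT10. Vimentin assembles by itself, nestin needs a partner such as vimentin, and the neurofilament medium and heavy chains need the light chain NEFL or alpha-internexin, the product of INA. Neurofilaments set the calibre of axons, KRT8 and KRT18 are the keratins of simple epithelia, KRT10 belongs to the upper layers of the epidermis, and vimentin marks mesenchymal and many cultured cells.

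Keratin mRNAs have close copies in the genome, which is visible in the coding sequence. The stretch of 81 bases shown here encodes the conserved end of the rod of KRT18, codons 362 to 388, and comes from the canonical GENCODE 44 transcript (hg38, 5′ to 3′). The lines after it give the same stretch of 2 processed pseudogenes of KRT18, also from GENCODE 44 and aligned without gaps, with capitals for the bases that differ from KRT18.
KRT18: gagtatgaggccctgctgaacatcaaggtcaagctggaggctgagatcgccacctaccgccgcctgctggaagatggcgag
KRT18P55: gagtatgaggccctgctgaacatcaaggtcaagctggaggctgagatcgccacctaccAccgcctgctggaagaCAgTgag
KRT18P5: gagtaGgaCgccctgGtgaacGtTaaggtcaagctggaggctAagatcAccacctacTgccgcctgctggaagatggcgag
KRT18P55 differed from KRT18 at 4 of the 81 bases and KRT18P5 at 8. These pseudogenes are shown because a read can be listed under a copy and not under its gene, which bears on the keratin values given further on.

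Library totals ran from 3121759 to 5303199 counts. MATR3, the targeted gene, is split over 2 gene models. The main model, ENSG00000015479, had 187 and 204 counts in KO clones 1 and 5, against 171 and 304 in WT A and B (log2 fold change 0.03, SE 0.28, edgeR adjusted p = 0.974). The counts of MATR3 thus do not check the KO labels. The date tags in the column names differ between KO and WT libraries, so an effect of date and one of genotype cannot be told apart. The name of one WT column also holds the word FACS and that of the other the word test, with no meaning given. The labels name no separate cultures, so each p-value takes in no more than the spread of these 4 libraries, and that may be technical. Of 14 haematopoietic markers, 8 were listed at 0 in all libraries, among them PTPRC, CD33, CD34, MPO, SPI1 and GATA1. Of the other 6, TAL1 had 15 and 14 counts in KO and 12 and 22 in WT, and ITGA2B had 13 and 19 in KO and 16 and 27 in WT. In bulk RNA, fewer cells of a type and less RNA per cell cannot be told apart.

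All 10 filament genes had at least 1 count, and 6 had enough counts to enter the edgeR fit over 10505 genes: NEFL, NES, VIM, KRT8, KRT18 and KRT10. Of these 6, 2 (NEFL and KRT8) were past an adjusted p of 0.05 as higher in KO and 0 as lower, and without a scaling factor KRT8 was not. Over all genes tested 1.58% were called higher, 0.609% lower and 2.19% either way, and since the set was picked on this comparison nothing is read from its count. In 4 of the 6 fitted genes both KO libraries lay above both WT libraries in CPM, the read count scaled to library size. This held for 25.0% of all tested genes, while both KO libraries lay below both WT libraries in 22.8%. Nothing is read from this count either, since NEFL and KRT8 are 2 of the 4. NEFL, with 3 and 3 counts in WT A and B, entered the fit through its KO counts alone. NES and KRT10 overlapped between the groups. Of the 4 genes not fitted, NEFM and INA lay higher in both KO libraries, and NEFH and KRT19 overlapped.

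**Figure D1:**
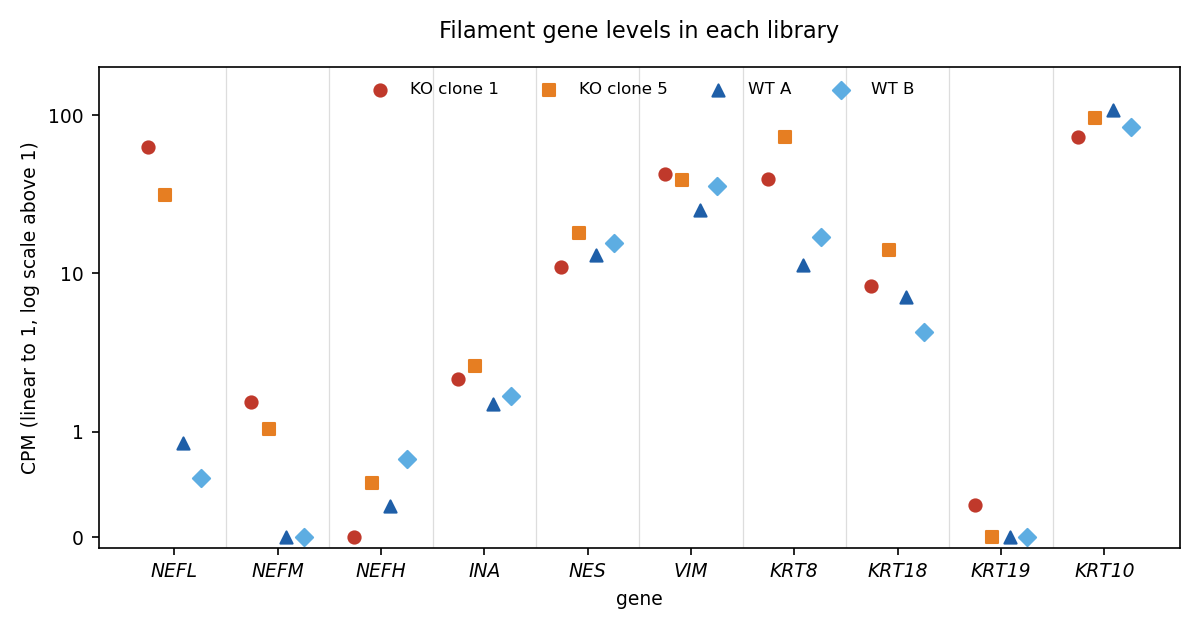
CPM of each filament gene in each library, with KO clones 1 and 5 left of WT A and B; the axis is linear up to 1 and logarithmic above. NEFL separates the groups most, at 62.9 and 31.3 CPM in the KO clones against 0.893 and 0.559 in WT, while KRT10 overlaps between them.

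NEFL encodes the neurofilament light chain, the core subunit on which neuronal filaments are built. It had 205 and 121 counts in KO clones 1 and 5, against 3 and 3 counts in WT A and B. Both KO clones were far above both WT libraries, and clone 1 was above clone 5. The mean was 47.1 ± 22.4 CPM in KO and 0.726 ± 0.236 CPM in WT (SD, n = 2 each), and the log2 fold change was 6.02 (SE 0.53). This was rank 2 of the 10505 fold changes, counted from the highest. With 6 counts over both WT libraries, the size of the fold is poorly fixed: the ratio of pooled counts, scaled to library size, was 66.6 with a 95% exact counting interval of 30.3 to 183. Such intervals and floors take in counting error alone and leave out the spread between libraries and clones. PCR copies of 1 molecule are counted separately, so the intervals may be too narrow even for counting error. The KO value itself rests on 326 counts. Over the alternative settings the log2 fold change of NEFL ran from 5.44 without KO clone 1 to 6.44 without KO clone 5.

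NEFM, the medium chain, lies near NEFL on chromosome 8, 31.9 kb away and on the opposite strand. It had 5 and 4 counts in the KO clones, against 0 and 0 in WT. Against a floor of 3 counts over the WT libraries, which is 0.344 CPM, the pooled KO level of NEFM was 3.68 times as high. This takes the 9 KO counts as exact, so the true difference may be smaller. NEFH, the heavy chain, had 0 and 2 counts in KO, against 1 and 4 in WT. Its pooled ratio of 0.49 had an interval of 0.0467 to 2.99, so no difference in either direction was detectable at this depth. INA, which encodes alpha-internexin, had 7 and 10 counts in KO, against 5 and 9 in WT. Its KO values of 2.15 and 2.59 CPM lay above 1.49 and 1.68 CPM in WT, but the pooled ratio of 1.49 had a counting interval of 0.69 to 3.26. NEFL thus made up 94.5% and 88.3% of the 217 and 137 counts of the 4 neuronal filament genes in KO clones 1 and 5. In WT A and B it made up 33.3% and 18.8% of 9 and 16 counts.

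Around NEFL, 2 genes outside the set and within 500 kb were tested, with log2 fold changes of 0.19 and 0.24, and neither passed. A noncoding model on the opposite strand shares 19.8% of the exonic bases of NEFL, and the sources used here do not say whether counting used strand.

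Nestin, the product of NES, is the long filament protein of neural progenitors. NES had 36 and 70 counts in KO clones 1 and 5, against 44 and 83 in WT A and B. KO clone 1 was the lowest of the 4 libraries and KO clone 5 the highest, at 11.1 and 18.1 CPM against 13.1 and 15.5 CPM. The log2 fold change was 0.03 (SE 0.33), with a 95% counting interval of 0.783 to 1.33 around the pooled ratio of 1.02. With KO clone 5 left out it was -0.38 and with KO clone 1 left out 0.33, so its sign changed with single libraries left out.

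VIM encodes vimentin. It had 138 and 151 counts in the KO clones, against 85 and 191 in WT. In CPM this was 42.4 and 39.1 in KO, against 25.3 and 35.6 in WT, so both KO clones were higher by a margin smaller than the gap between the WT libraries. The log2 fold change was 0.41 (SE 0.30), and it was 0.20 without WT A and 0.66 without WT B. Among 4 tested genes within 500 kb of VIM, 0 passed in either direction, with log2 fold changes from -0.06 to 0.67.

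KRT8, the type II keratin of simple epithelia, lies on chromosome 12 (52897187 to 52949954, hg38, minus strand). It had 129 and 279 counts in KO clones 1 and 5, against 38 and 91 counts in WT A and B. Both KO clones were above both WT libraries, with clone 5 highest. The mean was 55.9 ± 23.0 CPM in KO and 14.1 ± 4.00 CPM in WT (SD, n = 2 each), and the log2 fold change was 1.97 (SE 0.36), rank 76 of 10505. The pooled ratio was 3.87 with a 95% counting interval of 3.17 to 4.76. Leaving out single libraries moved the log2 fold change between 1.46 without KO clone 5 and 2.33 without KO clone 1.

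KRT18, the usual type I partner of KRT8, is its neighbour (52948871 to 52952906, plus strand). It had 27 and 54 counts in KO, against 24 and 23 in WT. Its level of 8.29 and 14 CPM in KO compared with 7.14 and 4.29 CPM in WT, so KO clone 1 was only just above WT A. The log2 fold change was 1.01 (SE 0.40), from 0.57 without KO clone 5 to 1.39 without WT A. The gene models of KRT8 and KRT18 share 525 exonic bases on opposite strands, 17.1% of those of KRT18. The canonical KRT8 transcript, however, covers only 52897191 to 52905076, outside KRT18. Of 12 other tested genes within 500 kb of KRT8, 0 passed. Their log2 fold changes ran from -0.80 to 1.52, with a median of -0.07.

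**Figure D2:**
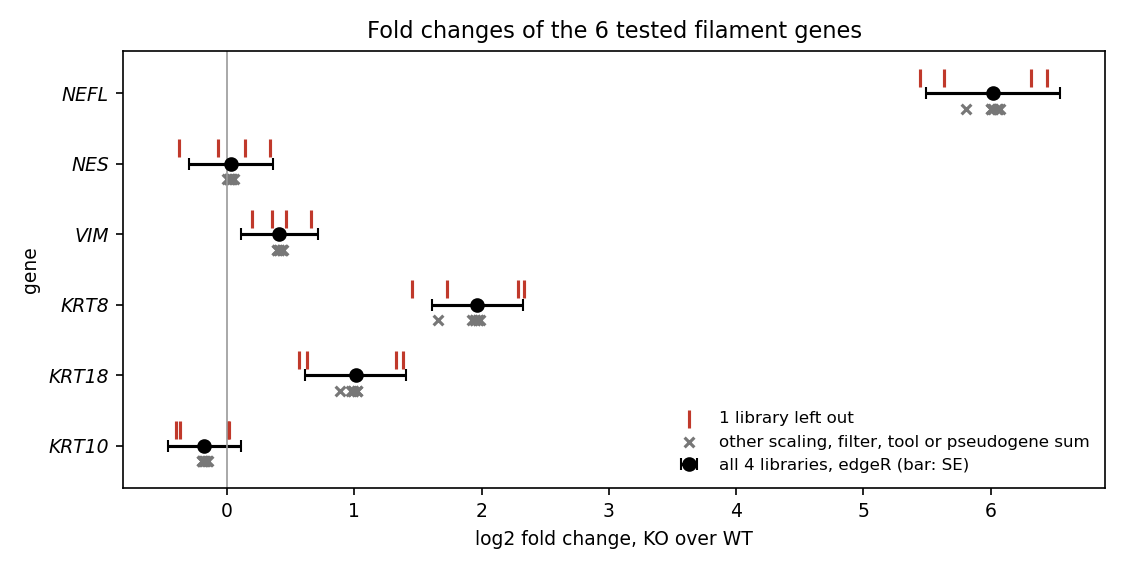
Log2 fold change, KO over WT, of the 6 filament genes with enough counts to be fitted; black points show all 4 libraries with the SE, red ticks the 4 fits with 1 library left out and grey crosses the other settings. NEFL and KRT8 stay above 1 in each fit shown, and the ticks of NES and KRT10 fall on both sides of 0.

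Processed pseudogenes, copies of an mRNA put back into the genome, are numerous for both keratins. By symbol, the count table lists 50 pseudogenes of KRT8 and 67 of KRT18, and GENCODE 44 classes all but 1 of them as processed. The exception, a KRT18 copy, had 0 counts. GENCODE 44 classes KRT8P12, KRT18P55 and KRT18P59 as transcribed processed pseudogenes, and their gene models span more than 2 times the length of their transcript. Models that wide held 26 of 54 counts of the KRT8 copies and 14 of 31 of the KRT18 copies. Whether such counts are keratin reads or transcripts of the copies themselves was not tested, which limits the sums below. The median identity of the copies to the mRNA was 89.6% for KRT8 and 90.3% for KRT18, and 2 of each set reached 95%. The KRT8 copies together held 8 and 10 counts in KO clones 1 and 5, against 18 and 18 in WT A and B. KRT8P12 on chromosome 3 held 26 of these 54 counts, the largest number under 1 copy, with 3 and 5 counts in KO and 12 and 6 in WT, followed by KRT8P39 with 2 and 1 against 1 and 5. As a share of KRT8 and its copies, the copies took 5.84% and 3.46% in KO, against 32.1% and 16.5% in WT. With the copies added, KRT8 had 42.1 and 74.8 CPM in KO, against 16.7 and 20.3 CPM in WT, and the log2 fold change was 1.65 (SE 0.34), a 3.15-fold difference in place of 3.91-fold.

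The KRT18 copies were split another way. They held 15 and 0 counts in KO clones 1 and 5, against 1 and 15 in WT A and B. KRT18P55 on chromosome 17 had 6 and 0 in KO and 0 and 5 in WT, and KRT18P5 on chromosome 22 had 2 and 0 in KO and 0 and 3 in WT. Thus the copies were seen mainly in KO clone 1 and WT B, 1 library of each group, where they made up 35.7% and 39.5% of KRT18 and its copies. With the copies added, KRT18 had 12.9 and 14 CPM in KO, against 7.44 and 7.09 CPM in WT. The libraries of each group then lay closer together than on the KRT18 row alone. The groups did not overlap, which was also so on the KRT18 row alone. The log2 fold change was 0.89 (SE 0.33) with the copies, below that of the KRT18 row alone.

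**Figure D3:**
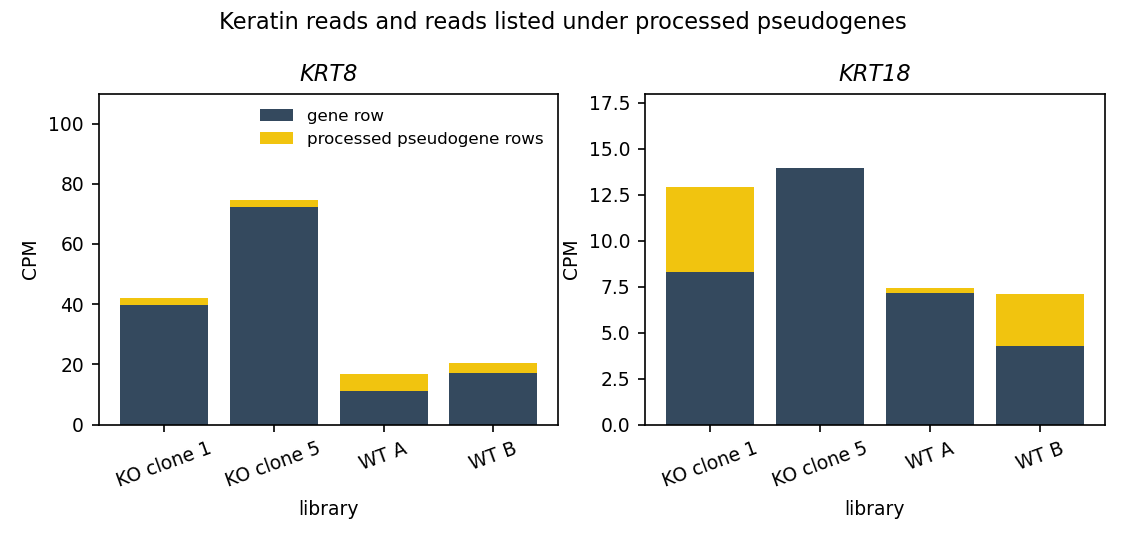
CPM of KRT8 (left) and KRT18 (right) in each library, with reads of the gene row in dark blue and reads listed under its processed pseudogenes stacked in yellow. The summed KRT18 bars reach 12.9 and 14 CPM in the KO clones and 7.44 and 7.09 CPM in WT.

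KRT19, a smaller type I keratin that can also pair with KRT8, had 1 and 0 counts in KO, against 0 and 0 in WT, and 2 counts under its copies in KO clone 1. No fold is given, since both groups are at or under the floor of 3 counts. KRT10, a type I keratin whose usual partner is KRT1, was the most abundant member. It lies on chromosome 17 (40818117 to 40822614, minus strand) and had 238 and 373 counts in KO, against 363 and 453 in WT. In CPM this was 73.1 and 96.5 in KO and 108 and 84.5 in WT, and the groups overlapped. The log2 fold change was -0.18 (SE 0.29), from -0.40 without KO clone 5 to 0.01 without WT A. KRT10 shares 61 exonic bases with a noncoding gene on the opposite strand, listed as TMEM99, which had 53 and 105 counts in KO and 82 and 90 in WT. None of the 10 filament genes had a near-identical copy on the 261 alternate contigs of hg38, at 98% identity over 80% of the transcript.

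Levels of different genes were set side by side as CPM per kb of the canonical transcript. In long reads a count need not grow with transcript length, so this scale can understate long transcripts. In KO cells the order was KRT10 at 39.6 ± 7.74, KRT8 at 31.3 ± 12.9, VIM at 18.9 ± 1.08, NEFL at 13.2 ± 6.24, KRT18 at 7.88 ± 2.84 and NES at 2.62 ± 0.897 CPM per kb (SD, n = 2). The ranges of KRT10 and KRT8 overlapped over the KO clones, and so did those of NEFL and KRT18. INA, NEFM, KRT19 and NEFH stayed under 1. In WT cells the order was KRT10 at 44.9 ± 7.76, VIM at 14.1 ± 3.39, KRT8 at 7.92 ± 2.25, KRT18 at 4.04 ± 1.43 and NES at 2.57 ± 0.303 CPM per kb (SD, n = 2). INA, NEFL and NEFH followed at 0.487, 0.203 and 0.138, and the ranges of NEFL and NEFH overlapped. NEFL therefore stood at place 4 in KO and place 7 in WT. With the union of all exons as the length, which is 6881 bases for KRT8 in place of 1784, KRT8 stood at 8.12 CPM per kb in KO and 2.05 in WT. NEFL, at 12, was then at place 2 in KO, before KRT8 and VIM (7.87). In WT, NES at 2.57 then came before KRT8 and KRT18 (1.86).

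The make-up of the filament transcripts differed with these levels. Per kb of canonical transcript, KRT10 made up 33.2% and 35.5% of the summed level of the 10 genes in KO clones 1 and 5, against 65.7% and 54.6% in WT A and B. The level of KRT10 itself overlapped between the groups. Its share also depends on the sum, which takes in NEFL and KRT8, the genes the set was picked on. KRT8 made up 21.6% and 31.9% in KO, against 8.27% and 13.2% in WT. NEFL made up 17.1% and 6.89% in KO, against 0.325% and 0.216% in WT. The share of VIM overlapped, with 19.2% and 14.3% in KO and 15.3% and 22.9% in WT. The sum of the 10 genes was 103 and 127 CPM per kb in KO, against 76.7 and 72.1 in WT. Per kb, KRT8 exceeded KRT18 by 3.78 and 4.09 times in KO, and by 1.25 and 3.13 times in WT. These values depend on the length used. Per kb of union exons, KRT8 made up 8.27% and 13.2% in KO, against 2.65% and 4.62% in WT, and NEFL 22.9% and 9.98% in KO, against 0.366% and 0.266% in WT. KRT10 kept the largest share on this length, with 48.5% and 56.0% in KO, against 80.7% and 73.1% in WT. The level of KRT8 over that of KRT18 was then 2.13 and 2.31 in KO, against 0.706 and 1.76 in WT.

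**Figure D4:**
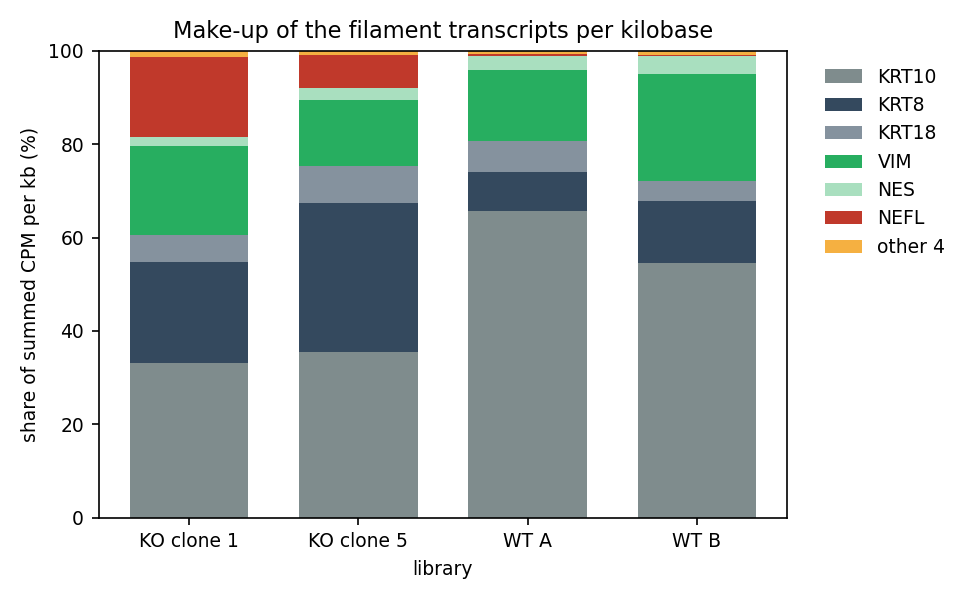
Share of each filament gene in the summed CPM per kb of canonical transcript of the 10 genes, as stacked bars for KO clones 1 and 5 and WT A and B. KRT10 takes 33.2% and 35.5% in the KO clones and 65.7% and 54.6% in WT.

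The libraries of the 2 KO clones differed in opposite directions for NEFL and KRT8. NEFL in clone 5 was 0.498 times its level in clone 1 (95% counting interval 0.394 to 0.626), while KRT8 was 1.82 times (1.47 to 2.26). On its own row KRT18 was at 1.69 times (1.04 to 2.78), but with the pseudogene counts added it was at 1.08 times (0.711 to 1.66), while KRT8 with its pseudogenes was at 1.78 times (1.45 to 2.19). VIM was at 0.922 times (0.727 to 1.17). Each clone has 1 library, so these ratios have no replicate check.

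The genes most like NEFL and KRT8 over the 4 libraries were sought among the 8493 tested genes that averaged 20 counts or more, by the root mean square difference of centred log2(CPM + 0.5). Nearest to NEFL was TPM2, the beta chain of tropomyosin, with a difference of 0.72, followed by POF1B at 0.788 and SPARCL1 at 1.15. TPM2 had 535 and 925 counts in KO, against 28 and 53 in WT. POF1B, an actin-binding protein, had 78 and 59 against 4 and 5, and so shared with NEFL the higher value in clone 1. Nearest to KRT8 were SMIM10L2A at 0.169, ESRG at 0.188 and TNNT1, the slow skeletal troponin T, at 0.25. ESRG, a noncoding RNA known from pluripotent stem cells, had 70 and 187 counts in KO, against 25 and 44 in WT. These genes were picked for a profile like that of KRT8, so no p-value is given for them. Without a scaling factor all 3 missed the edgeR threshold, as KRT8 did. Over the alternatives the log2 fold change ran from 1.68 to 2.36 for SMIM10L2A, from 1.44 to 2.62 for ESRG and from 1.20 to 1.80 for TNNT1. With 4 libraries such likeness is a description only.

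In the authors' deposited table of comparisons, 5 of the 10 filament genes are listed. The authors' deposited table gives a log2 fold change of 6.07 (SE 0.77) for NEFL and 1.97 (SE 0.45) for KRT8. It gives 0.41 for VIM, 0.03 for NES and -0.19 for KRT10.

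Genes related to filaments were followed in 8 lists of 204 genes, none of them a member, to see whether partners and markers differed too. Of the 64 tested, 1 was higher in KO and 0 were lower at an edgeR adjusted p under 0.05. This is 1 gene in 64, beside 1.58% called higher over all genes. The lists were written with earlier results of these data known, so their calls and p-values are descriptions too. DESeq2 called 3 of the list genes higher and limma-voom 1, and both called 0 lower. The median of all 10505 fold changes was 0.00.

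Most other cytoplasmic filament genes were listed at 0. Of 60 genes in this list, other keratins among them, 49 were at 0 in all libraries and 3 were tested, of which 0 passed. Peripherin (PRPH), another filament of neurons, had 4 and 3 counts in KO, against 5 and 5 in WT, and the synemin gene SYNM had 4 and 4 against 2 and 2. The filament-like gene IFFO1, with 77 and 47 counts in KO, against 36 and 69 in WT, was at 0.58 on the log2 scale (SE 0.36, edgeR adjusted p = 0.445), IFFO2 of 0.38 (SE 0.54) and the lens filament gene BFSP1 of -0.15 (SE 0.54). The median of these 3 was 0.38. Among the 60 genes, 10 are nearly repeated on an alternate contig, so a 0 there may not be a measurement.

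Linkers tie filaments to desmosomes, hemidesmosomes and the cytoskeleton. Of 26 such genes 15 were tested and 0 passed, with 8 above 0, 7 below 0 and a median log2 fold change of 0.21. JUP, which encodes plakoglobin, had 1021 and 744 counts in KO clones 1 and 5, against 296 and 812 in WT A and B. Its value was 1.07 on the log2 scale (SE 0.32, edgeR adjusted p = 0.106). The desmosomal cadherin DSG2 had 116 and 64 counts in KO, against 36 and 50 in WT, with 1.38 (SE 0.37, edgeR adjusted p = 0.0793). Over the alternatives the adjusted p ran from 0.000893 to 0.433 for DSG2 and from 0.011 to 0.728 for JUP. ITGA6, an integrin of hemidesmosomes, had 1.30 (SE 0.44, edgeR adjusted p = 0.153). The desmosome gene PKP2 went the other way, with 6 and 10 counts in KO, against 14 and 35 in WT. It was at -1.28 (SE 0.48, edgeR adjusted p = 0.196). The desmosome genes DSC1, DSC3, DSG1, DSG3, PKP1 and PKP3 were at 0.

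Assembly, turnover and transport genes include kinases that loosen filaments in mitosis, chaperones and the motors that carry neurofilaments. Of 25 genes 17 were tested and 0 passed, with 7 above 0, 10 below 0 and a median of -0.17. PAK1, a kinase that phosphorylates vimentin, had 74 and 52 counts in KO, against 136 and 188 in WT. It was at -1.07 on the log2 scale (SE 0.33, edgeR adjusted p = 0.116), and at -1.48 without KO clone 1. The kinesin gene KIF5C had 0.95 (SE 0.34) and RAB7A, a GTPase of late endosomes, -0.55 (SE 0.26). Without KO clone 5 the log2 fold change was 1.33 for KIF5C and -0.78 for RAB7A.

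Among 8 genes for proteins reported to bind neurofilament mRNAs, 5 were tested and 1 was higher in KO. HNRNPK had 5043 and 6039 counts in KO, against 2677 and 4241 in WT, with 1555 ± 10.2 CPM in KO and 794 ± 3.98 CPM in WT (SD, n = 2 each). Its log2 fold change was 0.97 (SE 0.21, edgeR adjusted p = 0.0283). It was 0.98 without WT A and 0.94 without WT B, but the SE rose to 0.43 in both and the call was lost. TARDBP, which encodes TDP-43, had 177 and 129 counts in KO, against 37 and 113 in WT, with 1.42 (SE 0.36, edgeR adjusted p = 0.0618, from 0.00261 to 0.429 over the alternatives). The median of the 5 tested was 0.23. PCBP1, a gene used by all cells, was listed at 1 count over the 4 libraries and HSPA1A at 0, so a gene listed near 0 in this table need not be silent.

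In the fit of all 4 libraries no neuronal or epithelial marker that could be tested passed. Of 25 neuronal genes 12 were tested and 0 passed, with 6 above 0, 6 below 0 and a median log2 fold change of -0.02. Their summed level was 2714 and 2897 CPM in KO, against 2933 and 2782 in WT. This sum is weighted to abundant genes and takes in REST. Among them UCHL1 had 772 and 1233 CPM in KO, against 1456 and 1211 in WT. STMN3 had 914.5 and 308 CPM in KO, against 237 and 334 in WT. DCX and STMN2 were at 0 in all libraries, and MAPT, nearly repeated on an alternate contig, was listed at 0. Low counts that could not be tested went both ways. SNAP25 had 0 and 0 counts in KO against 2 and 3 in WT, and GAP43 had 0 and 2 against 5 and 5. MAP2 had 6 and 17 counts in KO against 6 and 1 in WT, and NEUROG2 had 13 and 9 against 3 and 10. STMN3, a stathmin, had 2979 and 1192 counts in KO, against 796 and 1791 in WT, 1.10 on the log2 scale (SE 0.39, edgeR adjusted p = 0.178). Over the alternatives STMN3 ran from 0.11 without KO clone 1 to 1.67 without KO clone 5. Its edgeR adjusted p was 0.00546 without a count filter. TUBB2A had -0.80 (SE 0.35, edgeR adjusted p = 0.268), or -1.55 without KO clone 5, and SYP, which encodes synaptophysin, 0.58 (SE 0.31). REST, a repressor of neuronal genes, had 61 and 72 counts in KO, against 49 and 72 in WT.

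Of 25 epithelial genes 2 were tested and 0 passed, CLDN3 at 0.13 (SE 0.41) and GRHL1 at 0.60 (SE 0.50), with a median of 0.36. Their summed level was 18.7 and 15.5 CPM in KO, against 14.6 and 17.5 in WT. EPCAM had 4 and 5 counts in KO, against 9 and 14 in WT, and E-cadherin (CDH1) had 1 and 4 against 0 and 1. Of this list 9 genes were at 0, among them GRHL2, TP63 and ST14. Among 21 mesenchymal and neural progenitor genes 8 were tested and 0 passed, with 4 above 0, 4 below 0 and a median of -0.12. HES1 had 0.93 (SE 0.35, edgeR adjusted p = 0.205), or 1.35 without KO clone 5. S100A4 had -0.44 (SE 0.29) and fibronectin (FN1) 0.40 (SE 0.40). Their summed level was 329 and 256 CPM in KO, against 268 and 303 in WT. Of the haematopoietic markers 2 were tested and 0 passed, TAL1 at 0.08 (SE 0.43) and ITGA2B at -0.13 (SE 0.41), with a median of -0.03.

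**Figure D5:**
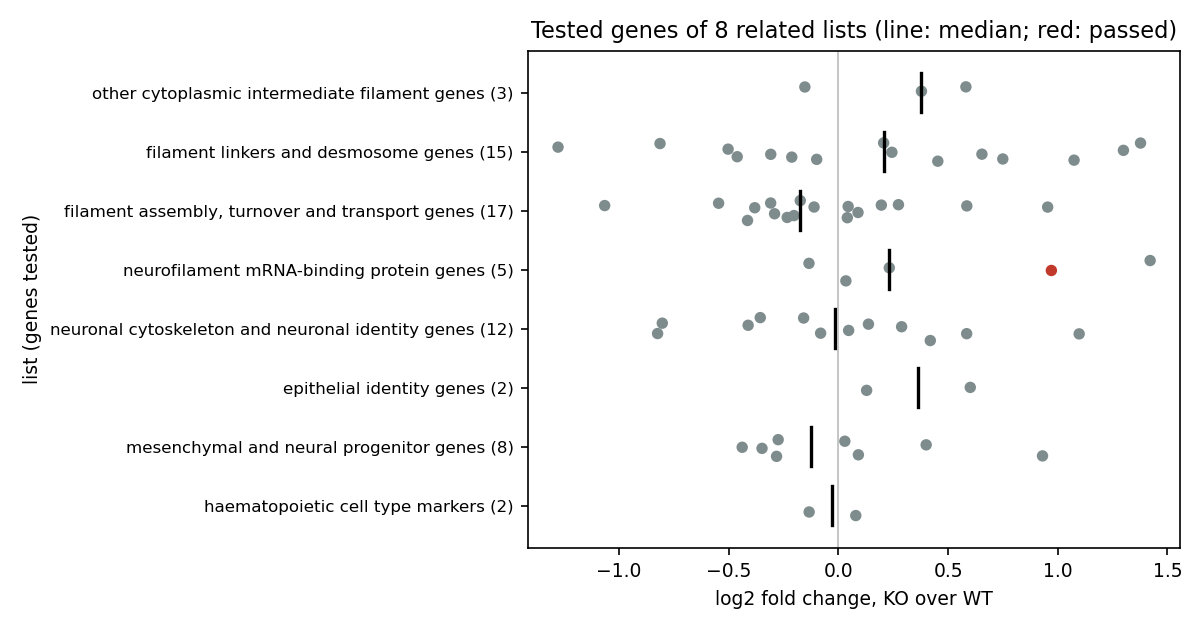
Log2 fold change, KO over WT, of each tested gene in the 8 lists, with the number tested in brackets, the median as a black line and genes past an edgeR adjusted p of 0.05 in red. HNRNPK at 0.97 is the single red point, and the neuronal genes lie on both sides of 0.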

How the data were processed

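Per the labels' protocols, PCR-amplified cDNA of total RNA was read on a MinION in 4 libraries of HAP1 cells. The main deposited table holds raw read counts per gene, whole numbers that the authors did not normalise. The submitters' processing notes name hg38, minimap2, SAMtools, Subread, DESeq and DESeq2 1.22.2; the sources used here give no settings, annotation or strand use. The authors' deposited table of comparisons gives log2 fold changes and their SE. The 4 columns of the authors' normalised table were not used here, and 0 columns of the count table were left unmapped. KO columns were matched by clone number. WT columns were matched by the product number of that line; with no replicate number, they are called A and B.

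Counts were fitted in edgeR 4.0.16 (R 4.3.3): TMM scaling, filterByExpr at a minimum count of 10 and a total of 15, and the robust quasi-likelihood F test, two-sided, with Benjamini-Hochberg adjustment over 10505 genes. The SE was taken as the fold change (log2) divided by root F. The fit was tested on simulated data. The biological coefficient of variation was 0.21, and the median count per tested gene was 48 and 54 in KO clones 1 and 5, against 44 and 76 in WT A and B. Positions, lengths and sequences came from GENCODE 44. Pseudogenes were matched by symbol and aligned to the canonical mRNA with Biopython 1.88. The neighbours were genes within 500 kb.

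The members, the lists and the alternatives were chosen with earlier results of these data known. Named genes were all members and their pseudogenes, the list genes past the threshold and otherwise up to 3 with the lowest p per list, and the 3 genes most like NEFL and KRT8. Any other list gene was named after its values were seen. The alternatives were RLE scaling, no scaling factor, limma-voom (limma 3.58.1), DESeq2 1.42.0, no count filter, a filter at a mean of 50 counts, each library left out, keratins summed with their pseudogenes, union exon length, and CPM on library totals. Some genes and sequences are not reported here.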

Additional observations from a re-analysis of the deposited data

How the results depend on the processing

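Depth limits NEFM, NEFH, INA and KRT19, none of which had more than 31 counts over the 4 libraries, and the WT level of NEFL. No paired analysis was possible because the KO and WT columns share no replicate numbers. Over 11 alternatives the log2 fold change ran from 5.44 to 6.44 for NEFL and from 1.46 to 2.33 for KRT8; these genes were chosen on this comparison, so the ranges are descriptions. KRT18 did not enter the fit at a mean of 50 counts.

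Over all genes, where 166 were called higher and 64 lower in KO, the calls numbered 20 and 11 without a scaling factor, 385 and 183 without a count filter, and 71 and 12 at a mean of at least 50 counts. DESeq2 called 24 lower and limma-voom 41 lower. Leaving out 1 library gave 91 to 674 higher and 42 to 361 lower, with 674 and 361 without KO clone 5, 91 and 156 without WT A, and 42 lower without WT B. Each fit without 1 library, here and below, leaves 1 library in 1 group, so its spread rests on the other group's pair alone. Nothing is read from the calls of such fits. Fewer genes or libraries entered some of these fits, and the causes were not tested otherwise. Of the list genes, where 1 was higher and 0 lower, DESeq2 called 3 higher, RLE scaling 2 and the fit without a count filter 5. Leaving out 1 library gave 0 to 8 higher and 0 to 5 lower. The list calls were 8 and 5 without KO clone 5, 0 higher without WT A, and 1 lower without KO clone 1. Of 40 comparisons of member levels on another length or library total, 6 moved beyond 1 SD.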
